A study of Mus musculus with 6 samples.

Results

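The genes described here are the amino acid transporters of 7 solute carrier families, SLC1, SLC3, SLC6, SLC7, SLC36, SLC38 and SLC43, in a mouse ovarian surface epithelial (OSE) cell line before and after it transformed in culture. The members were taken by gene symbol, as every symbol on the array that is made of one of these family names followed by a number. The rule found 60 genes out of 20405 genes on the array. Probe sets are groups of short probes that read the same transcript, and where a gene had several, the brightest on average across all 6 arrays stood for it.

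Amino acids cross membranes through carriers that differ in what they take and what drives them: sodium for SLC1, SLC6 and most SLC38 carriers, protons for SLC36, and exchange of 1 amino acid for another for the heteromeric carriers of SLC7. In a heteromeric carrier, a catalytic light chain of SLC7 is joined by a disulfide bond to a heavy chain of SLC3, which brings it to the cell surface. Dividing cells draw on such carriers for leucine, glutamine and cystine, and mTORC1, the kinase that couples amino acid supply to growth, reads their supply.

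The study set M0505 cells, an OSE line from FVB/N mice kept at early passage, beside STOSE cells, which arose from M0505 cells by spontaneous transformation over long-term passage. Both lines were grown in the same medium, alpha-MEM with fetal calf serum, EGF, the supplement ITSS and antibiotics, and the labels name no treatment and no introduced gene for either. RNA of 3 samples per line, which the labels call biological replicates, was read on Affymetrix Mouse Gene 1.0 ST microarrays, 1 sample to an array. Each group is 1 line, so transformation, passage number and chance differences between lines cannot be told apart, and the p-values measure only the spread between samples of a line, which may be technical.

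Values are the authors' log2 values after robust multi-array averaging (RMA), which corrects for background, equalizes the arrays and sums up the probes of a probe set. A difference is the mean log2 value of STOSE minus that of M0505, and a value of 1 is a 2-fold change. A gene was called higher or lower in STOSE cells at an adjusted p under 0.05 and a change of at least 2-fold. The p came from limma fitted to all 20405 genes, with Benjamini-Hochberg adjustment over all of them. A gene was said to be at background in a line where its value lay under the 95th percentile of 1134 probe sets for olfactory receptors on each of the 3 arrays. That percentile was 4.63 to 4.84 on the log2 scale. Array medians over genes were 6.25 to 6.49. Across genes, Pearson's r ranged from 0.997 to 0.999 for pairs of arrays within a line and from 0.943 to 0.95 for pairs that crossed the lines.

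Markers of the labelled cell type were checked first. Of 17 OSE markers, none was at background in both lines, and *Upk3b*, *Upk1b*, *Wt1*, *Krt7*, *Krt18*, *Gata4*, *Gata6*, *Bnc1* and *Msln* were above background on all 6 arrays. In STOSE cells 6 of the markers (35.3%, beside 7.59% of all genes) were called lower and *Lhx2* (5.88%, beside 4.9%) was called higher. The mesothelial retinoid enzyme *Aldh1a2* was at background in STOSE cells and at least 94.4-fold lower. The keratins *Krt19* and *Krt8* differed by −5.56 and −4.55, and *Gata4*, *Bnc1* and *Krt7* by −1.38, −1.05 and −1.03. With each array centred on its median *Bnc1* and *Krt7* were not called, and *Krt7* was not called without M0505 replicate 2, M0505 replicate 3 or STOSE replicate 1. The OSE label of the M0505 line therefore had its markers, and in the STOSE line *Aldh1a2* was at background and *Krt8* and *Krt19* were lower.

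Replicate 1 of M0505 stood apart from the other 2 arrays of its line in a few of the transporter genes and not in most. Its gap, the log2 value minus the mean of those 2 arrays, had a median of −0.03 over the 60 genes. The deviations of the 60 genes from the line's means had an SD of 0.223 on this array, 0.170 and 0.0849 on replicates 2 and 3, and 0.0840 to 0.109 on the STOSE arrays. Over all genes the SD was 0.116, 0.0856 and 0.0878 on the M0505 arrays and 0.117, 0.0846 and 0.0968 on the STOSE arrays, so this array was no more spread than STOSE replicate 1 there, and *Slc7a11* had the largest gap of the transporter genes. The genes that this array moved most are therefore given with and without it.

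Of the 60 transporter genes, 3 were called higher and 5 were called lower in STOSE cells, and 52 passed neither call. These are 5% and 8.33% of the transporter genes, beside 4.9% and 7.59% of all genes, so the transporter genes as a group were called about as often as any gene (13.3% beside 12.5%). With each array centred on its median, 3 were called higher and 4 lower, and among all genes the higher calls went from 39.2% to 52.4% of the calls. The median difference was 0.09 for the transporter genes and 0.08 for all genes. With the adjusted p alone and no limit on the size of the change, 16 were higher and 15 were lower, beside 31.6% and 24.8% of all genes, and 4 of the 16 were at background in both lines. This balance depended on the scaling, since with each array centred on its median 37 were higher and 12 were lower by the adjusted p alone, beside 58.1% and 19.6% of all genes. The arrays of the 2 lines did not overlap for 37 of the 60 genes, beside 64.6% of all genes. The same 8 genes were called when each array was left out in turn.

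**Figure D1:**
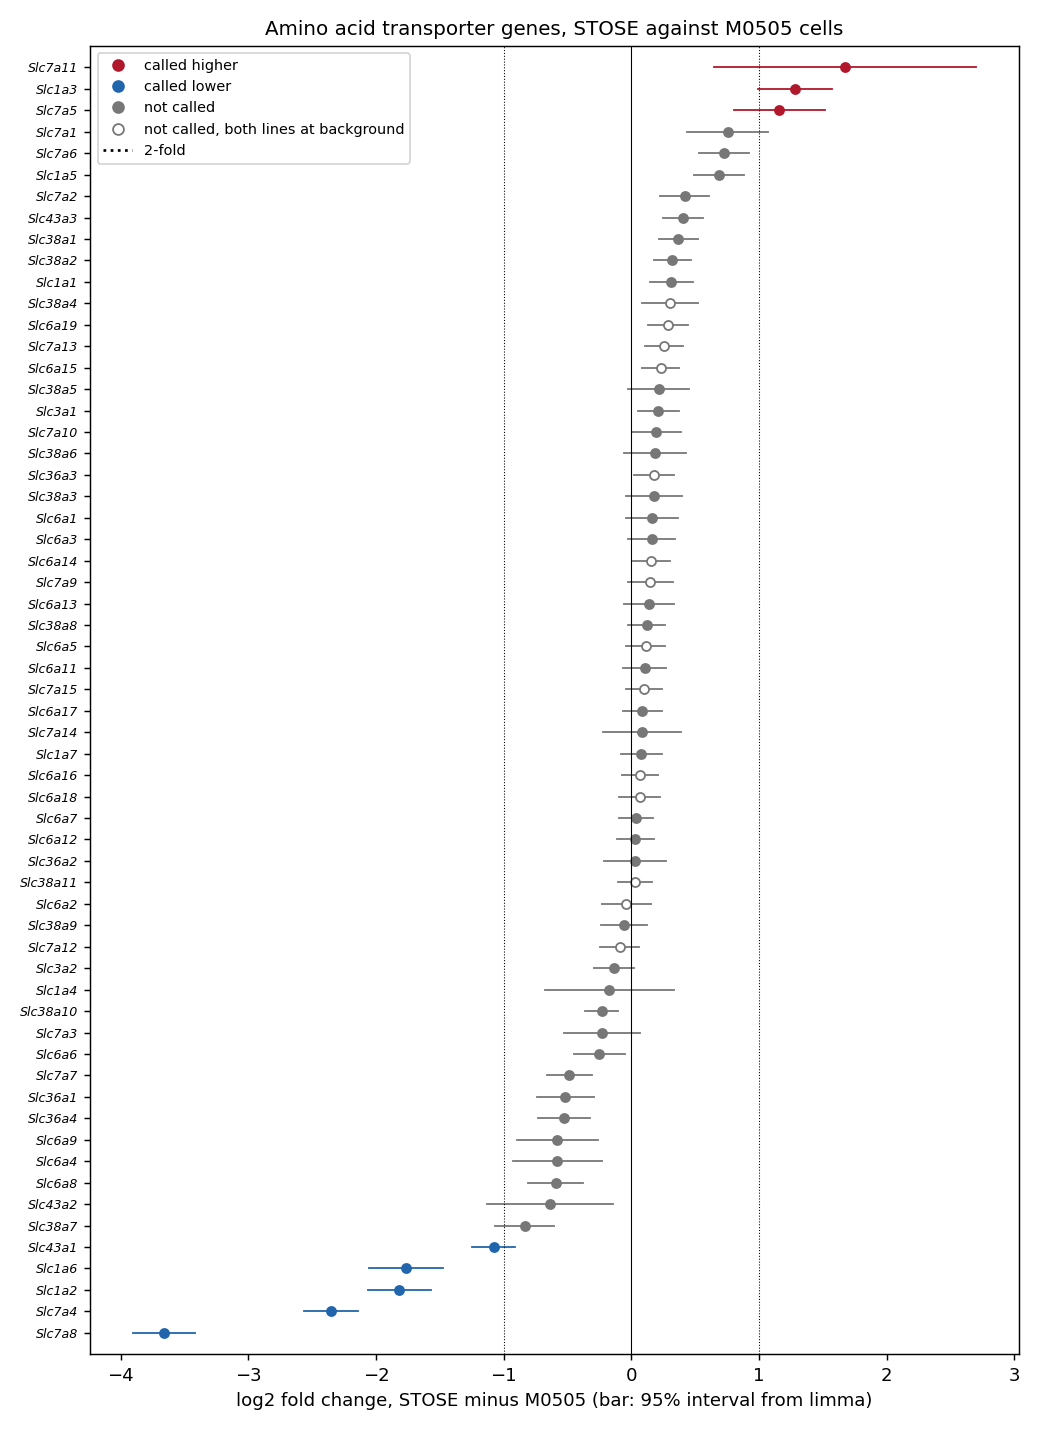
The 60 transporter genes are ranked by their log2 difference, STOSE minus M0505, with 95% confidence intervals from limma. Most lie within 1 log2 unit of 0, 5 genes led by *Slc7a8* at −3.66 lie beyond it on the lower side, and 3 genes led by *Slc7a11* at 1.67 lie beyond it on the higher side.

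A share of the transporter genes was not measurable in either line. In both lines 14 genes were at background on all arrays, among them the kidney and intestinal carriers *Slc7a9*, *Slc6a18* and *Slc6a19*, the noradrenaline carrier *Slc6a2* and the spinal glycine carrier *Slc6a5*. The rest of the 14 were *Slc7a12*, *Slc7a13*, *Slc7a15*, *Slc6a14*, *Slc6a15*, *Slc6a16*, *Slc36a3*, *Slc38a4* and *Slc38a11*. The other 46 genes were above background on at least 1 array, 33 of them on all 6, and of these 46 genes 3 were at background in M0505 cells alone and 4 in STOSE cells alone. Among those 46 genes 17.4% were called, beside 16.9% of the 15013 genes of the whole array that met the same condition. No fold is read from genes at background in both lines.

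The heavy chain *Slc3a2* (4F2hc or CD98) carries the light chains of the plasma membrane exchangers. It read 11.72, 11.58 and 11.58 on the 3 M0505 arrays and 11.58, 11.43 and 11.47 on the 3 STOSE arrays. The nearest arrays of the lines both read 11.58, and the difference was −0.13 with a 95% confidence interval of −0.29 to 0.02 and an adjusted p of 0.127 from limma. It turned to 0.030 when each array was centred on its median and was −0.23 (limma adjusted p = 0.0231) after a further quantile normalization, so its direction depends on the scaling, and its limma adjusted p was 0.042 with an intensity trend and ran from 0.0231 to 0.682 over the alternatives. The other heavy chain, *Slc3a1*, the partner of *Slc7a9* in kidney and gut, differed by 0.21 at an adjusted p of 0.0297 by limma. This became 0.15 (limma adjusted p = 0.148) after a further quantile normalization. *Slc3a1* lay close to background in both lines, with a mean of 4.82 in M0505 cells and 5.03 in STOSE cells.

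Of the 6 light chains that pair with *Slc3a2*, 2 were called higher, 1 was called lower and 3 were not called. The called shares are 33.3% and 16.7%, beside 4.9% and 7.59% of all genes. The largest change of any transporter gene was the fall of *Slc7a8* (LAT2), an exchanger of large and small neutral amino acids. *Slc7a8* read 8.56, 8.20 and 8.30 in M0505 cells and 4.73, 4.55 and 4.79 in STOSE cells. Every M0505 array lay more than 3 log2 units above every STOSE array, and all 3 STOSE arrays were at background. The fitted difference was −3.66 ± 0.11 (SE, n = 3 arrays per line, limma adjusted p = 4.73e-08). Because STOSE cells were at background, the change is a bound, at least 11.7-fold lower, in which the STOSE arrays are set to the background limit.

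*Slc7a5* (LAT1), the exchanger that brings leucine and other large neutral amino acids into dividing cells, went the other way. It read 10.54, 9.84 and 10.09 in M0505 cells and 11.31, 11.28 and 11.36 in STOSE cells. The STOSE arrays were higher and nearly equal to each other, and replicate 1 was the highest of the M0505 arrays. The difference was 1.16 ± 0.15 (SE, limma adjusted p = 0.000263), a 2.23-fold increase. It was 1.35 without M0505 replicate 1, 1.002 without replicate 2, which is at the 2-fold limit, and 1.13 without replicate 3. Thus *Slc7a5* and *Slc7a8*, whose products share the heavy chain and many substrates, were called in opposite directions.

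*Slc7a11* (xCT) takes up cystine in exchange for glutamate and so supplies cysteine for glutathione. It read 7.82, 5.68 and 6.44 in M0505 cells and 8.26, 8.29 and 8.40 in STOSE cells. The STOSE arrays lay together and above every M0505 array, whereas the M0505 arrays were scattered, with an SD of 1.09. The difference was 1.67 ± 0.45 (SE, limma adjusted p = 0.0123). Its size turned on which M0505 array was used: it was 2.26 without replicate 1, 1.19 without replicate 2 and 1.57 without replicate 3, with limma adjusted p-values of 7.33e-05, 0.0286 and 0.0452. The methods' t-test, which does not share the spread across genes, gave an adjusted p of 0.0973 and so did not call it.

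**Figure D2:**
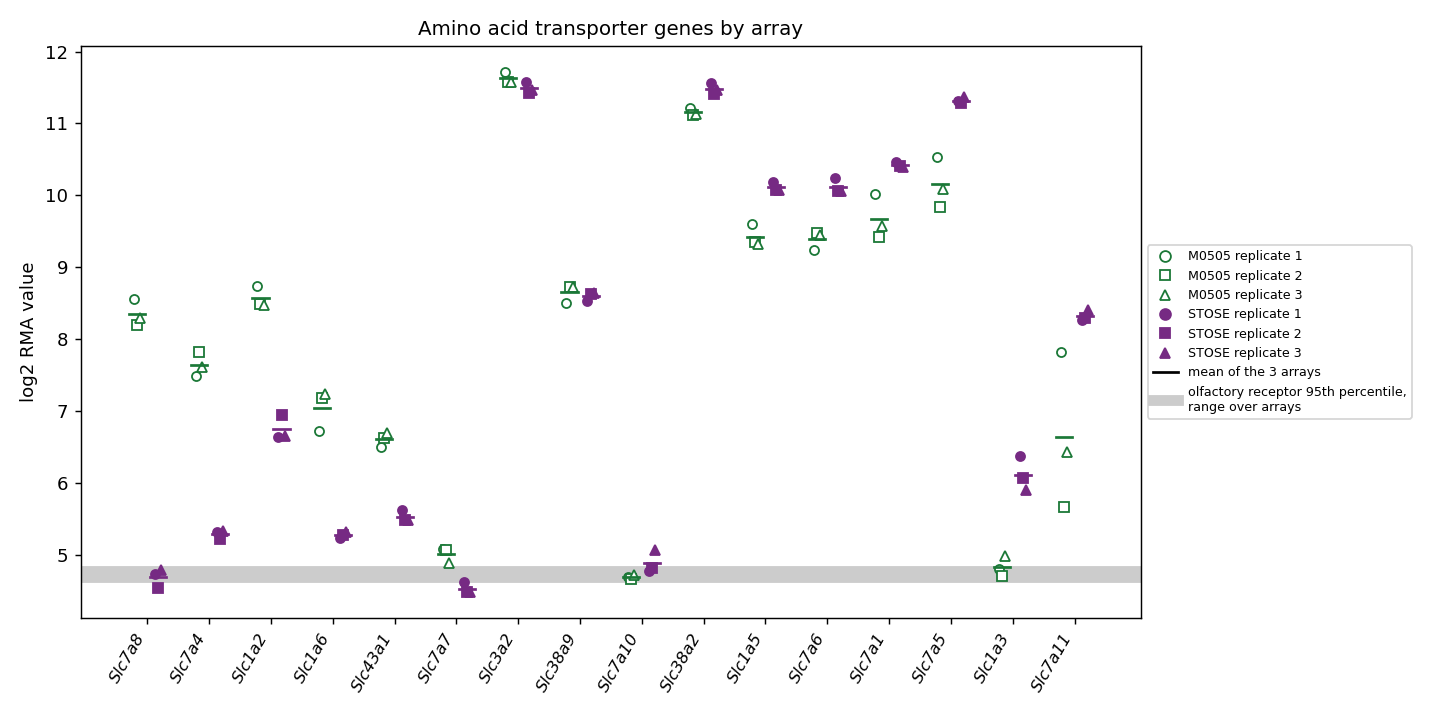
Log2 RMA values of the 16 transporter genes described singly are plotted for each of the 3 M0505 and 3 STOSE arrays, with 1 point per array. *Slc7a8* falls to background in STOSE cells, and the M0505 points of *Slc7a11* span from 5.68 to 7.82 while its STOSE points lie between 8.26 and 8.40.

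The other 3 light chains of *Slc3a2* did not pass the call. *Slc7a6*, which exchanges cationic for neutral amino acids, read 9.25, 9.47 and 9.45 in M0505 cells and 10.24, 10.06 and 10.06 in STOSE cells. These arrays did not overlap, and the difference was 0.73 (limma adjusted p = 0.000116), under the 2-fold limit. *Slc7a7*, which does the same work in gut, kidney and macrophages, read 5.09, 5.07 and 4.89 in M0505 cells and 4.62, 4.49 and 4.48 in STOSE cells. It was low in both lines and at background in STOSE cells, which gives a bound of at least 1.16-fold lower. *Slc7a10*, a carrier of small neutral amino acids including D-serine, read 4.69, 4.67 and 4.73 in M0505 cells and 4.78, 4.82 and 5.07 in STOSE cells. It stayed close to background in both lines, with a difference of 0.20 (limma adjusted p = 0.0774). The 4 light chains that do not use *Slc3a2*, namely *Slc7a9*, *Slc7a12*, *Slc7a13* and *Slc7a15*, were at background in both lines.

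The 5 glutamate and aspartate carriers of SLC1 take up glutamate with sodium and are best known for clearing it from synapses. Of these, 2 were called lower and 1 was called higher (40% and 20%, beside 7.59% and 4.9% of all genes). *Slc1a2* (GLT-1), a main carrier of astrocytes, read 8.74, 8.49 and 8.47 in M0505 cells and 6.64, 6.95 and 6.66 in STOSE cells. All STOSE arrays were below all M0505 arrays, by −1.82 ± 0.11 (SE, limma adjusted p = 2.19e-06), a 3.52-fold fall. *Slc1a6* (EAAT4), known from cerebellar Purkinje cells, read 6.73, 7.18 and 7.24 in M0505 cells and 5.24, 5.28 and 5.33 in STOSE cells. Its STOSE arrays were tightly grouped and lower by −1.77 ± 0.13 (SE, limma adjusted p = 6.62e-06), a 3.40-fold fall.

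*Slc1a3* (GLAST), the other glial glutamate carrier, rose. It read 4.81, 4.70 and 4.99 in M0505 cells and 6.37, 6.07 and 5.90 in STOSE cells. The M0505 arrays were just above background and did not overlap with the STOSE arrays, which differed from them by 1.28 ± 0.12 (SE, limma adjusted p = 4.03e-05). *Slc1a1*, the epithelial and neuronal glutamate carrier, differed by 0.31. *Slc1a7*, a carrier of the retina, was above background on 1 M0505 array and no STOSE array.

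Neural cells were not a labelled part of these cultures, so neural and glial markers were read beside these genes. Of 9 such markers on the array, 6 were above background in at least 1 line and 5 on all 6 arrays. Of the 9, 0 were called higher and 1, the synaptic gene *Snap25*, was called lower at −1.02 (0% and 11.1%, beside 4.9% and 7.59% of all genes). This call was lost without M0505 replicate 1, without STOSE replicate 1 and under both other scalings. The 3 markers at background in both lines were *Gfap* and *Aqp4* of astrocytes and *Gad2* of inhibitory neurons. The brightest marker was *Mbp*, with a difference of −0.30. The summed linear signal of the markers was 9.363, 9.309 and 9.289 on the log2 scale in M0505 cells and 8.999, 9.034 and 9.133 in STOSE cells.

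The neutral amino acid exchangers of SLC1 are *Slc1a4* and *Slc1a5*, and neither was called. *Slc1a5* (ASCT2), a sodium-dependent exchanger by which many dividing cells take up glutamine, read 9.60, 9.35 and 9.33 in M0505 cells and 10.18, 10.08 and 10.08 in STOSE cells. These arrays did not overlap, and the difference was 0.69 (limma adjusted p = 0.000159), under the 2-fold limit.

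The cationic carriers of SLC7 work without a heavy chain and bring in arginine, lysine and ornithine. Of the 5 genes, 1 was called lower and none was called higher (20% and 0%, beside 7.59% and 4.9% of all genes). *Slc7a4*, a relative of these carriers whose substrate is not settled, read 7.49, 7.83 and 7.62 in M0505 cells and 5.32, 5.22 and 5.33 in STOSE cells. The STOSE arrays were near to each other and more than 2 log2 units below each M0505 array. The difference was −2.36 ± 0.09 (SE, limma adjusted p = 2.42e-07), a 5.12-fold fall. *Slc7a1*, the widely expressed arginine carrier, read 10.02, 9.42 and 9.57 in M0505 cells and 10.46, 10.41 and 10.40 in STOSE cells. No arrays overlapped, and the difference was 0.76 (limma adjusted p = 0.0017), or 0.93 without M0505 replicate 1, both under the 2-fold limit. *Slc7a2*, the inducible arginine carrier, was at background in M0505 cells and at least 1.09-fold higher in STOSE cells.

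The 3 SLC43 genes include facilitative carriers of branched-chain and other large neutral amino acids. *Slc43a1* (LAT3) read 6.50, 6.63 and 6.70 in M0505 cells and 5.62, 5.49 and 5.49 in STOSE cells. The lines were well separated, by −1.08 ± 0.07 (SE, limma adjusted p = 4.81e-06), a 2.11-fold fall. This call sat close to the 2-fold limit and was lost under other scalings, with −0.98 after a further quantile normalization and −0.91 after centring each array on its median. *Slc43a2* (LAT4) was not called, at −0.64 (limma adjusted p = 0.0341), or −0.38 (limma adjusted p = 0.0565) without M0505 replicate 1. *Slc43a3*, a purine base carrier, was at background in M0505 cells and was not called, at least 1.24-fold higher in STOSE cells.

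None of the 11 sodium-coupled SLC38 genes was called, beside 12.5% of all genes and 16.9% of those with a line above background. Of the 11 genes, 2 were at background in both lines. *Slc38a2* (SNAT2), which takes up small neutral amino acids and is known to be induced when they run short, read 11.22, 11.12 and 11.14 in M0505 cells and 11.56, 11.41 and 11.46 in STOSE cells. The arrays did not overlap, and the difference of 0.32 (limma adjusted p = 0.0027) was a 1.25-fold change. *Slc38a9*, the arginine sensor of the lysosome that signals to mTORC1, read 8.51, 8.73 and 8.73 in M0505 cells and 8.53, 8.63 and 8.65 in STOSE cells. These arrays overlapped, and the difference was −0.06 with a 95% confidence interval of −0.24 to 0.12 (limma adjusted p = 0.563), which turned to 0.11 when arrays were centred. Across the family the differences ran from −0.84 for *Slc38a7*, a lysosomal glutamine carrier, to 0.37 for *Slc38a1*, a glutamine carrier of the cell surface.

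None of the 18 SLC6 genes and none of the 4 SLC36 genes was called, beside 12.5% of all genes and 16.9% of those with a line above background. At background in both lines were 6 of the 9 SLC6 carriers of glycine, proline and neutral amino acids. So were 1 of the other 9 SLC6 genes and 1 of the 4 SLC36 genes. In the SLC6 family, with the adjusted p alone, 4 genes were lower: the creatine carrier *Slc6a8* at −0.59, the serotonin carrier *Slc6a4* at −0.58, the glycine carrier *Slc6a9* at −0.58 and the taurine carrier *Slc6a6* at −0.25. *Slc6a6* did not pass with centred arrays (−0.087, limma adjusted p = 0.395), nor when any 1 of the arrays other than M0505 replicate 1 was left out. The 2 SLC6 genes that were higher by the same rule, *Slc6a15* and *Slc6a19*, were at background in both lines. As given above, 24.8% of all genes were lower and 31.6% were higher by that rule. The SLC36 carriers move amino acids out of lysosomes or into cells with protons. Of these, *Slc36a1* and *Slc36a4* differed by −0.52 and −0.53, with limma adjusted p-values of 0.00195 and 0.00105. *Slc36a2* differed by 0.03, and *Slc36a3* was at background in both lines.

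Within the M0505 line, the array that stood apart was compared with the other 2 gene by gene. No share over all genes was taken for the gaps given here and below. Replicate 1 was at least 0.5 log2 units above the mean of the other 2 M0505 arrays in 5 of the 60 genes, namely *Slc7a11* by 1.77, *Slc1a4* by 0.89, *Slc43a2* by 0.77, *Slc7a5* by 0.57 and *Slc7a1* by 0.52. It was that far below them in 0 genes, while replicate 2 was at least 0.5 below the mean of the other 2 arrays in 2 genes. *Slc1a4* (ASCT1), a carrier of serine and alanine, and *Slc43a2* are named here after their values were seen. *Slc1a4* read 8.23, 7.23 and 7.44 in M0505 cells and 7.45, 7.44 and 7.49 in STOSE cells, so the single array was the only one above the rest. Its difference of −0.17 became 0.13 without that array.

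These genes were set beside 28 genes of the amino acid response, a program in which uncharged tRNA activates the kinase Gcn2 and the transcription factor ATF4 then induces genes for amino acid uptake and synthesis. M0505 replicate 1 was at least 0.5 log2 units above the mean of the other 2 arrays in 14 of the 28 genes, with a median gap of 0.49, beside a median gap of −0.03 for the transporter genes. The mean log2 value of the 28 genes was 8.43, 7.92 and 8.06 on the M0505 arrays and 8.45, 8.28 and 8.30 on the STOSE arrays. M0505 replicate 1 thus lay among the STOSE arrays and the other M0505 arrays lay below them. Its part in the differences of *Slc7a11*, *Slc7a5* and *Slc7a1* was not tested beyond the values without that array given above.

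**Figure D3:**
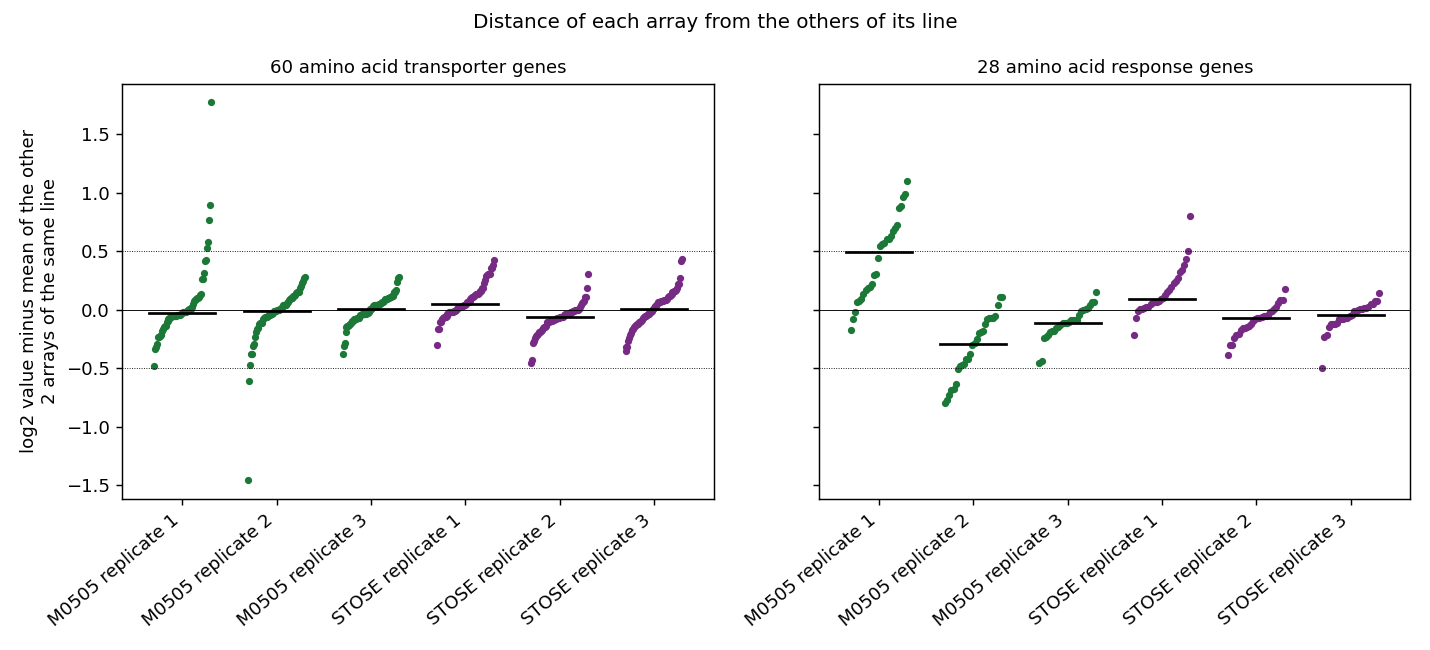
For each array, the log2 distance from the mean of the other 2 arrays of its line is plotted for the 60 transporter genes and the 28 amino acid response genes, with dotted lines at 0.5 above and below 0. In M0505 replicate 1, 5 transporter genes and 14 response genes lie above the upper line.

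Between the lines, 5 of the 28 response genes were called higher and 2 were called lower (17.9% and 7.14%, beside 4.9% and 7.59% of all genes), with a median difference of 0.14 beside 0.08 for all genes. The called genes included *Vldlr*, a lipoprotein receptor, which was at background in STOSE cells and at least 4.29-fold lower, *Atf3*, a stress transcription factor, at 1.90, and *Phgdh*, the first enzyme of serine synthesis, at 1.78. The count of higher genes was 6 without M0505 replicate 1, 5 without replicate 3 and 3 without replicate 2, and it was 3 by the methods' t-test after adjustment. The other called genes were *Psat1*, the next enzyme of serine synthesis, at 1.20, the mitochondrial folate enzymes *Aldh1l2* at 1.16 and *Mthfd2* at 1.10, and *Ddit4*, an inhibitor of mTORC1, at −1.15, or −0.99 and not called with centred arrays. Without M0505 replicate 1, *Phgdh* differed by 2.07, *Psat1* by 1.41, *Aldh1l2* by 1.49 and *Mthfd2* by 1.42, and *Trib3*, a pseudokinase induced by ATF4, was also called, at 1.16 beside 0.80 with all arrays. Without replicate 2, *Aldh1l2* at 0.90 and *Mthfd2* at 0.85 were not called. *Atf4* itself differed by 0.39 and *Asns*, asparagine synthetase, by 0.54, both under the 2-fold limit.

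The letters TGATGNAA of the C/EBP-ATF response element, which ATF4 binds, were sought on both strands of the promoters of the transporter genes. The promoters were RefSeq windows from 250 bases before to 50 bases after each start in build GRCm38.p6. A promoter was given for 42 of the 60 genes and for 6 of the 8 called genes, *Slc7a4* and *Slc7a5* being without one here. The motif was found in 3 of the 42 genes (7.14%), *Slc7a11*, *Slc1a4* and *Slc7a7*, beside 4.51% of the 27025 genes with a promoter. Of the 5 transporter genes at least 0.5 log2 units up in M0505 replicate 1, *Slc7a11* and *Slc1a4* had a match. The gap genes *Slc43a2* and *Slc7a1* had promoters without a match, and *Slc7a5* had no promoter here. A link between the motif and the gap was not tested. The stretches below come from the 3 genes with a match. They are written 5′ to 3′ on the strand of the gene, with each match in capitals.
Slc7a11: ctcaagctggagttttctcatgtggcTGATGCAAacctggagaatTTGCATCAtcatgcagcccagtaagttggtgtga
Slc1a4: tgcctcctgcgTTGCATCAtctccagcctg
Slc7a7: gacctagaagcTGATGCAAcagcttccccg

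The *Slc7a11* stretch is chr3:50443627-50443705 on the minus strand and ends 14 bases before the start. It holds the motif once on each strand, at positions −66 and −47 from the start, with 11 bases between the matches. The *Slc1a4* stretch is chr11:20332699-20332728 on the minus strand, with the motif on the opposite strand at position −4. The *Slc7a7* stretch is chr14:54417927-54417956 on the minus strand, with the motif at position −1 from 1 of its starts and −243 from another. A further match, with the letters TGATGAAA, lies within chr14:54418067-54418096 at position −141 and is not shown, and *Slc7a7* did not share the gap in M0505 replicate 1. A match is a description of the letters and not evidence of binding.

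The letters TGACNNNGC of the antioxidant response element, bound by Nrf2, were found on either strand in 9 of the 42 genes (21.4%), beside 14.0% of all genes with a promoter. The 1 called gene among them was *Slc43a1*. Its stretch is chr2:84840297-84840326 on the plus strand, with the motif on the opposite strand at position −16, shown in capitals.
Slc43a1: agcgccgccgGCTGTGTCAggcgggaggaa

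Other genes that move, sense or use amino acids were counted in the same way, and each count reads against the 4.9% higher and 7.59% lower of all genes. Of 22 other amino acid carriers, which include *Slc6a20a* and *Slc6a20b* of SLC6 because their symbols end in a letter, 1 was called higher and 2 were called lower, with a median difference of 0.03. The higher gene was *Slc16a10* (TAT1), which carries aromatic amino acids, at 1.96. The lower genes were *Ctns*, the cystine exporter of lysosomes, which was 2.83-fold lower, and *Slc25a12*, the mitochondrial aspartate and glutamate carrier, at −1.02, and the count of lower genes was 1 without M0505 replicate 2, without M0505 replicate 3 or with centred arrays.

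Of 10 proteins that escort or regulate amino acid carriers, 1 was called in each direction, with a median difference of 0.12. *Cd44*, a surface glycoprotein that binds xCT in tumor cells, was higher at 1.32. *Sgk3*, a kinase that raises the activity of several carriers, was lower at −3.29 ± 0.09 (SE, limma adjusted p = 4.04e-08).

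Genes by which mTORC1 senses amino acids gave 1 call higher and 5 lower out of 26, which is 3.85% and 19.2%, beside 4.9% and 7.59% of all genes. Their median difference was 0.10. The lower genes were *Sesn1* at −2.06 and *Sesn3* at −1.75, which encode sestrins that restrain mTORC1, the Rag GTPase gene *Rragb* at −1.65, *Gatsl2*, a relative of an arginine sensor, at −1.18, and the Rag GTPase gene *Rragd*, which was at background in STOSE cells and at least 2.14-fold lower. The higher gene was *Fnip2*, a partner of folliculin, at 1.07, and it was lost without STOSE replicate 1. By the adjusted p alone 9 of the 26 were higher and 9 were lower, beside 31.6% and 24.8% of all genes. Among those higher by that rule were relatives of the lower genes, *Sesn2* at 0.51, *Rragc* at 0.61 and *Gatsl3* at 0.38, all under the 2-fold limit.

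Among 34 enzymes of amino acid synthesis and breakdown, 5 were called higher and 3 were called lower (14.7% and 8.82%, beside 4.9% and 7.59% of all genes), with a median difference of 0.20. Among the lower genes were *Ass1*, which makes the precursor of arginine, at −4.42 ± 0.07 (SE, limma adjusted p = 2.75e-09) and *Bcat1*, which starts the breakdown of branched-chain amino acids, at −2.97, or −2.64 without M0505 replicate 1. Among the higher genes were *Phgdh* and *Psat1*, *Shmt1*, which joins serine to folate metabolism and was 3.01-fold higher, and *Cad*, which starts pyrimidine synthesis from glutamine and was 2.83-fold higher. With centred arrays the count of higher genes was 8. *Phgdh* and *Psat1* of serine synthesis belong to this list as well as to the amino acid response.

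Of 20 cytosolic aminoacyl-tRNA synthetases, which load amino acids onto tRNA, only *Yars* at 1.29 was called higher and none was called lower. Their median difference of 0.46 lay above that of all genes, and by the adjusted p alone 15 of the 20 were higher and 2, *Mars* at −0.50 and *Rars* at −0.25, were lower, beside 31.6% and 24.8% of all genes. With centred arrays 3 were called higher. Of 13 genes for glutathione synthesis and cysteine use, which draw on the cystine that *Slc7a11* imports, 1 was called in each direction, with a median difference of 0.10. These were *Oplah*, which recycles glutathione breakdown product to glutamate, at 1.38, and *Csad*, an enzyme of taurine synthesis, at −1.05, whose call was lost without STOSE replicate 2 and under both other scalings.

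**Figure D4:**
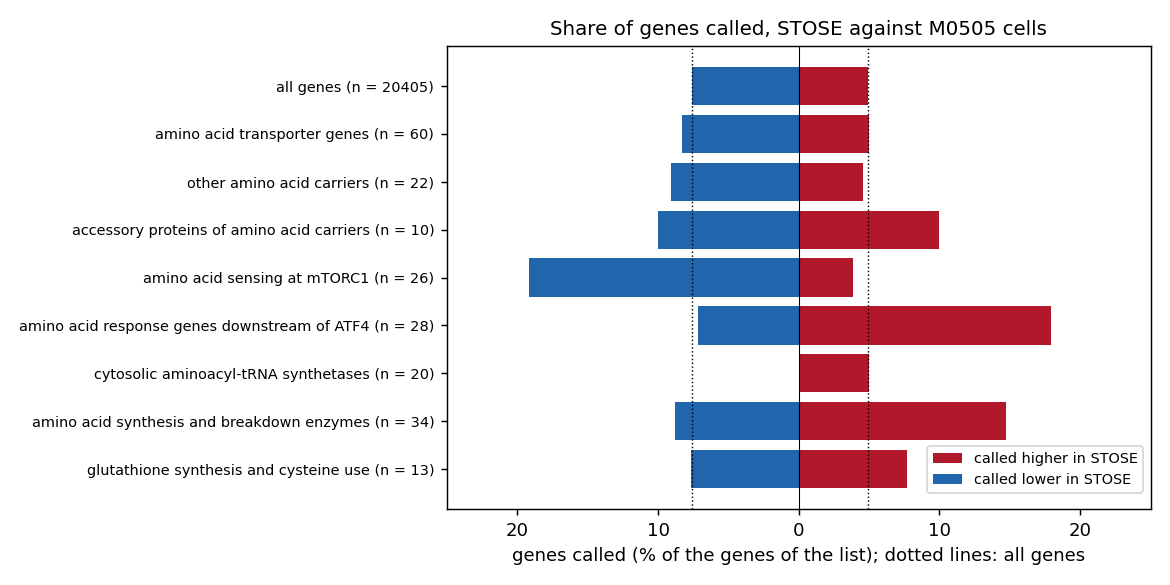
Bars give the percentage of genes called higher and called lower in STOSE cells for the transporter genes and for each related list, starting at 0, with dotted lines at the shares of all genes. The amino acid transporter genes lie close to the dotted lines at 5% and 8.33%, and the mTORC1 sensing genes have the largest share called lower of the related lists at 19.2%.

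Markers of other cell types of the ovary were counted too, and these counts also read against 4.9% higher and 7.59% lower of all genes. Of 10 granulosa and theca markers 3 were called lower, *Star* at −5.97, *Inha* at −3.93 and *Nr5a1* at −2.58, and 5, including *Fshr*, *Cyp19a1* and *Lhcgr*, were at background in both lines. The brightest was *Star*, and the summed linear signal of the list on the log2 scale was 11.89, 11.90 and 11.91 in M0505 cells and 8.34, 8.31 and 8.35 in STOSE cells. A linear sum weighs the brightest genes of a list most. The median difference of the 10 granulosa and theca markers was −0.006, with 5 of them above 0. By the adjusted p alone 2 of these 10 were higher and 4 were lower. Of 8 endothelial markers 2 were called lower, *Kdr*, the brightest, at background in STOSE cells and at least 27.3-fold lower, and *Esam* at −2.77, and the summed signal went from 10.19, 10.31 and 10.21 to 7.91, 7.83 and 7.93. The median difference of the 8 endothelial markers was 0.04, with 5 of them above 0. By the adjusted p alone 2 were higher and 3 were lower, beside 31.6% and 24.8% of all genes. *Emcn* was at background in both lines. Of 8 fibroblast markers, *Thy1* was called higher at 1.49 and *Col1a2* lower at −2.45, the brightest was *Dcn*, and *Lum* was at background in both lines. The count of higher fibroblast markers was 2 without STOSE replicate 3 and 3 with centred arrays, and the summed signal was 12.51, 12.61 and 12.61 in M0505 cells and 12.48, 12.55 and 12.56 in STOSE cells. Of 8 leukocyte markers 0 were called and 5, including *Ptprc*, were at background in both lines, with *Cd3e* the brightest and a summed signal of 7.32, 7.27 and 7.27 in M0505 cells and 7.37, 7.41 and 7.49 in STOSE cells. The part of these cell types in the differences of the transporter genes was not tested, and in bulk RNA fewer cells of a type and less RNA per cell cannot be told apart.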

How the data were processed

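RNA of 3 M0505 and 3 STOSE samples was hybridized to Affymetrix Mouse Gene 1.0 ST arrays. The authors deposited 1 table of log2 values after RMA (Affymetrix Expression Console, per the submitters' processing notes), annotated with T4-MEV. Software versions and the genome build are not given in the sources used here. The table also holds the authors' mean of each line and their linear fold change, which were not used. Of 28944 probe sets, 23530 had a symbol. An array has no read depth, and the number of arrays limits the precision: an exact permutation test of 3 against 3 cannot go below 0.1.

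STOSE was compared with M0505 with limma 3.58.1 (lmFit, eBayes) under R 4.3.3, two-sided and without covariates. The code was tested on simulated data. At-least folds compare the mean of the brighter line with the mean, over the arrays of the line at background, of the higher of the olfactory receptor percentile and the gene's own value. The members, lists, motifs and background measure were chosen with earlier results of these data known.

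Named with the value of each array were all called members and, called or not, *Slc3a2*, its light chains, *Slc1a5*, *Slc38a2*, *Slc7a1* and *Slc38a9*. From the other lists, up to 3 called genes with the largest changes were named where a list had more, and others were chosen after their values were seen. The results of some single genes are not reported here. Alternatives were centring each array on its median, another round of quantile normalization, dropping the dimmest 25% or 50% of genes, averaging a gene's probe sets, limma with an intensity trend, the methods' t-test, the adjusted p alone, a 4-fold limit, a replicate block and leaving out each array. All 60 members matched RefSeq by symbol. The chance test of single genes by permutation was not run.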

Additional observations from a re-analysis of the deposited data

How the results depend on the processing

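The sizes of 16 transporter genes were recomputed under the alternatives that keep the 2-fold limit (so not the adjusted p alone or the 4-fold limit), which gave 235 values, of which 229 kept their direction and their side of the threshold, 4 lost the call and 2 changed sign. Those that changed sign were *Slc3a2* (0.030) and *Slc38a9* (0.11) with centred arrays, which moved the median of all genes from 0.08 to 0.24, while a further quantile normalization moved it to 0.04. The cause was not tested. *Slc43a1* lost its call under both scalings, which left 3 transporter genes higher and 4 lower, and *Slc7a11* lost its call by the methods' t-test, adjusted or not, which left 2 higher and 5 lower. By the adjusted p alone 16 transporter genes were higher and 15 lower, and 6454 and 5066 of all genes. Combined with centred arrays, a pair of settings chosen after seeing the data, this gave 37 and 12 transporter genes and 11851 and 3992 of all genes, and combined with a further quantile normalization it gave 15 and 15, and 6139 and 5010. With a 4-fold limit these were 0 and 2 transporter genes, and 186 and 509 of all genes. Without the dimmest 50% of genes 2 were higher and 3 lower, since *Slc1a3*, *Slc1a6* and *Slc43a1* were not tested there. Leaving out each array in turn kept the counts at 3 and 5, with *Slc7a11* between 1.19 and 2.26. Same-numbered arrays of the lines deviated together at r = 0.26, 0.04 and 0.25 across genes, and each M0505 array correlated best with its own number. The other pairs that crossed the lines ran from −0.29 to 0.12. The labels do not say whether the numbers pair the samples, and these values do not settle it. A replicate block gave 3 transporter genes higher and 5 lower, and 1001 and 1548 of all genes. The signal over background limits 14 genes, which were at background in both lines.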

Other observations

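Several transporter genes are neighbors on a chromosome in the RefSeq annotation of GRCm38.p6. *Slc38a1*, *Slc38a2* and *Slc38a4* are consecutive on chromosome 15 and the first 2 differed by 0.37 and 0.32, while *Slc38a4* was at background in both lines. *Slc43a1* and *Slc43a3* lie on chromosome 2 with 1 gene between them and the former was called lower while the latter was not called, being at background in M0505 cells and at least 1.24-fold higher in STOSE cells. *Slc1a1* was the only transporter gene with a second probe set, which read 4.42, 4.46 and 4.18 in M0505 cells and 4.43, 4.67 and 4.67 in STOSE cells, all under the olfactory receptor percentile, so it was at background in both lines.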
